A study of Mus musculus with 9 samples.

Results

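The chemokine system of mouse neuroblastoma tumors was examined across the 54429 gene symbols of a whole-tumor RNA-seq count table. Members were taken by symbol, as every numbered Ccl, Ccr, Cxcl or Cxcr gene together with Cx3cl1, Cx3cr1, Xcl1, Xcr1, the atypical receptors Ackr1 to Ackr4, Ccrl2, Pf4 and Ppbp. The rule matched 64 symbols, of which 5 (Ccl20, Ccl21b, Ccl26, Ccl27b and Cxcl15) had a count of 0 in all 9 libraries. Of the remaining 59, 58 are reported here, 36 ligands and 22 receptors, and counts of members are over these 58. Of these, 41 (26 ligands and 15 receptors) passed the low-count filter and were tested among 15931 genes, and 17 did not.

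The tumors were grown from NB9464 cells, a MYCN-amplified mouse neuroblastoma line, placed under the skin of wild-type C57BL/6 mice. Mice entered treatment at a tumor volume of 250 mm3, in 3 groups with 3 sequenced tumors each. The vehicle group was compared with R788 + anti-PDL1, and with Rad + R788 + anti-PDL1, called irradiated here. R788, or fostamatinib, is converted in the body to a Syk kinase inhibitor and was dosed at 50 mg/kg, anti-PDL1 is a checkpoint-blocking antibody (clone 10F.9G2), and radiation was 10 Gy. Treatment in 4 doses fell on days 28, 31, 34 and 37, although which agents these days cover was not given. No group with a single agent was analysed here, so R788 cannot be told apart from the antibody, and radiation was only compared on top of both. The grafts are subcutaneous and of 1 line, and the RNA mixes tumor, immune, stromal and vessel cells.

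Chemokines are small secreted proteins that direct the movement of cells along gradients. They are classed by the spacing of their first cysteines into CXC, CC, CX3C and XC families, and signal through G protein-coupled receptors carried mainly by leukocytes. Atypical receptors bind the same ligands without G protein signalling and remove or shuttle them. In tumors, CXCR2 ligands are known as attractants of neutrophils, CCR2 ligands of monocytes, CXCR3 ligands of activated T cells and NK cells, and Cxcl12 as a retention signal for Cxcr4-bearing cells. Because these were bulk libraries, fewer cells of a type and less RNA per cell cannot be told apart in any result that follows.

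Total counts per library ranged from 18276683 to 23397886, of which the members took 3457 to 12664. A count of 0 allows up to 3 counts, or 0.114 to 0.221 CPM (counts relative to the TMM-scaled library size), and covers counting error only. The labels did not say whether tumors came from separate litters or days, so p-values measure the spread between these 9 tumors. Irradiated replicate 1 stood apart, with Pearson r across genes of 0.86 to 0.91 with the other 8 libraries, against 0.94 to 0.98 among those 8. Its TMM factor was 0.743, against 0.975 to 1.12 elsewhere. Irradiated replicate 3 held the most macrophage marker RNA, with a summed level of 1303 CPM over 10 markers against 211 to 476 in the other 8. Of 7 neuroblast markers, Hand2 and Mycn were abundant, Th had no count in any library, and Phox2a and Dbh had at most 3 counts. Isl1 had counts of 0, 0 and 0 in vehicle, 80, 48 and 63 in R788 + anti-PDL1 and 14, 27 and 21 in irradiated tumors. In R788 + anti-PDL1 against vehicle its log2 fold change was 8.78 (adjusted p = 0.0344 by edgeR), although it passed the filter only through treated tumors. Gata3 had counts of 206, 4 and 55, then 15, 8 and 8, then 80, 119 and 149 in the same groups. The markers chosen for the chemokine set itself, Cxcl10, Ccl2 and Cxcl12, were detected in all 9 libraries.

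Member RNA was concentrated in a few genes. The 10 most abundant members (Ccl6, Ccl25, Ackr3, Ccl9, Pf4, Ccl8, Ccr2, Cxcl16, Ccl2 and Cx3cl1) took 67.9% to 79.1% of all member counts in a library. Per kilobase of exon (RPKM), which allows genes to be set against each other, and over members with a known length, the highest mean levels in vehicle tumors were those of Pf4 at 23.7 RPKM, Ccl6 at 22.4 RPKM, Ccl2 at 16 RPKM and Ccl8 at 15 RPKM. Pf4 is a platelet and macrophage chemokine, Ccl6 is a myeloid CC ligand of rodents, and Ccl2 is the main monocyte attractant. Among receptors, Ackr3, the scavenger of Cxcl12, led with 8.56 RPKM in vehicle tumors. Summed over the 36 ligands, the level was 211, 210 and 211 CPM in vehicle replicates 1 to 3, 154, 213 and 178 CPM in R788 + anti-PDL1 replicates 1 to 3, and 241, 129 and 459 CPM in irradiated replicates 1 to 3. The vehicle tumors were nearly equal, whereas irradiated tumors held both the lowest and the highest sum. Of the 41 tested members, 22 had their highest value in irradiated replicate 3, none had its lowest there, and no other library held more than 5 highest values. The same count over all tested genes is not given here, so 22 cannot be read as particular to chemokines.

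**Figure D1:**
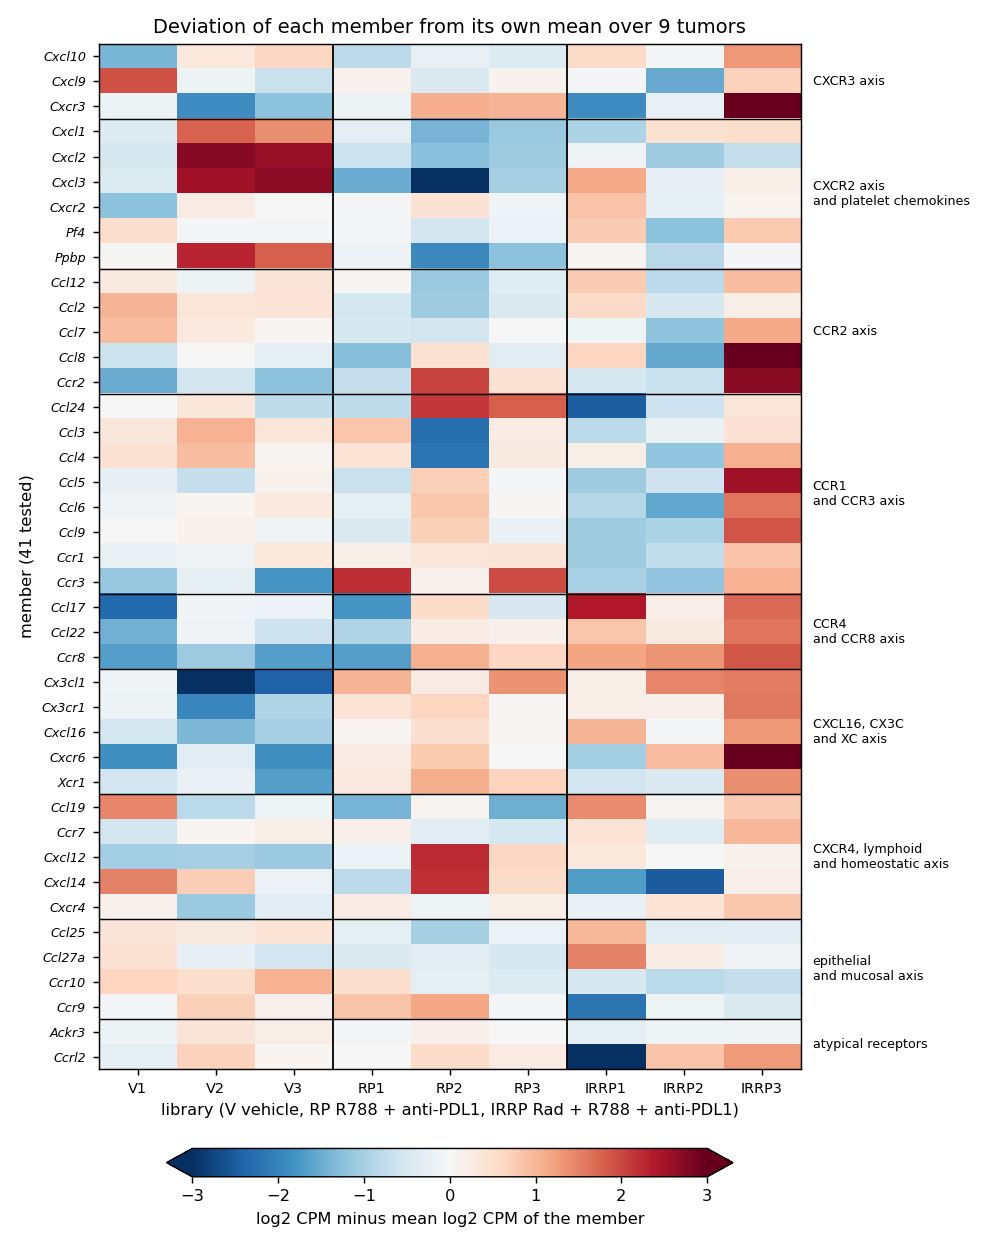
Heat map of the 41 tested members (rows, by role group) in the 9 tumors (columns, V for vehicle, RP for R788 + anti-PDL1, IRRP for irradiated, each with its replicate number), with color for log2 CPM minus the member's mean over the 9 libraries, limited to ±3. Cxcl1, Cxcl2, Cxcl3 and Ppbp are darkest red in vehicle replicates 2 and 3, and most CCR2, CCR1 and CCR3 axis members are reddest in irradiated replicate 3.

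No member was called at an adjusted p under 0.05 in any comparison by edgeR's quasi-likelihood test. The share of all tested genes called was 0.678% for R788 + anti-PDL1 against vehicle, 0.0439% for irradiated against vehicle and 0.00628% for irradiated against R788 + anti-PDL1, so few or no calls among 41 members is near the background. At an unadjusted p under 0.05, 10, 12 and 3 members were past the threshold in these comparisons. DESeq2, the tool of the study, called 7, 4 and 0 members (of 47, 46 and 41 with an adjusted p), where it called 4.01%, 3.15% and 4.06% of all genes. Limma-voom called 0 members in each, beside 0.697%, 0.0753% and 0.0502% of genes. With sample quality weights it called 14, 10 and 2 members, beside 30.3%, 12.5% and 19.3% of genes. Every difference described below is therefore one that missed the threshold of the main test, and its size and error are given as measured.

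By direction, 5 members were higher and 5 lower at an unadjusted p under 0.05 in R788 + anti-PDL1 than in vehicle, which is 12.2% of members each way against 5.96% and 5.69% of all genes. Irradiated tumors had 9 members higher (22%, against 7.71% of genes) and 3 lower (7.32%, against 5.51%) than vehicle. Against R788 + anti-PDL1 they had 3 members higher (7.32%, against 11.7% of genes) and 0 lower (against 6.65%). Groups of 3 that did not overlap were counted in the same way. In R788 + anti-PDL1 against vehicle, 7 members lay wholly higher and 7 wholly lower, or 17.1% each, against 13.6% and 16.6% of genes, which is close to the background. In irradiated against vehicle, 7 were wholly higher and 2 wholly lower, against 9.26% and 11.2% of genes, and in irradiated against R788 + anti-PDL1 the counts were 5 and 3, against 14.3% and 13.1%. The median log2 fold change of the 41 members was 0.11, 0.37 and 0.53 in the 3 comparisons, against -0.02, 0.05 and 0.04 over all genes. Without irradiated replicate 3, with 45 members tested, the last pair of member medians became -0.28 and -0.21, so that their sign rested on that tumor. The filter bears on these counts, medians and signs. Of the 41 members, 6 (Ccl17, Ccr3, Ccr8, Cxcr3, Cxcr6 and Xcr1, or 14.6%, against 3.38% of all tested genes) reached its level of 0.49 CPM in no vehicle tumor, so they were tested only because treated tumors were higher. Likewise Cxcl3 reached it in no R788 + anti-PDL1 tumor and Ccr9 in no irradiated tumor. Of the members higher at an unadjusted p under 0.05 against vehicle, 2 of the 5 in R788 + anti-PDL1 (Ccr3 and Ccr8) and 4 of the 9 in irradiated tumors (Ccl17, Ccr8, Cxcr3 and Cxcr6) were among those 6. The 3 comparisons share groups, and their values are given side by side.

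**Figure D2:**
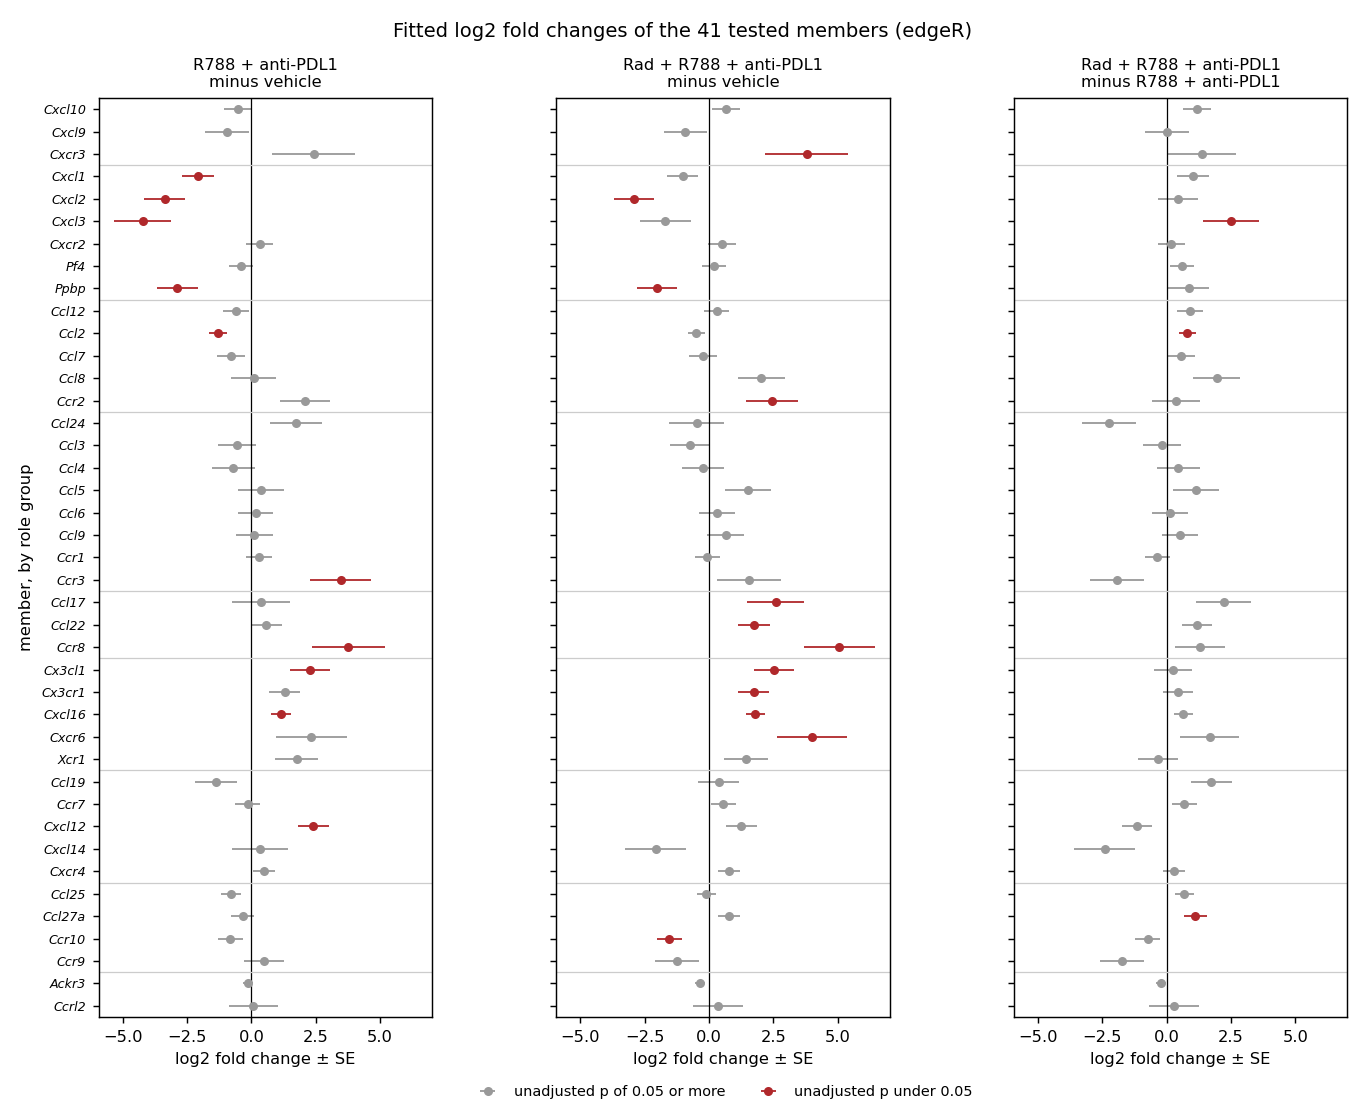
Fitted log2 fold changes (x axis) with SE of the 41 tested members (y axis, by role group) in the 3 comparisons (panels), in red where the unadjusted p was under 0.05. Cxcl1, Cxcl2, Cxcl3 and Ppbp lie to the left of 0 in both comparisons with vehicle, and Cxcl16, Cx3cl1 and Cx3cr1 lie to the right of 0 in both.

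In R788 + anti-PDL1 tumors, ligands of CXCR2, the main chemokine receptor of neutrophils, measured lower than in vehicle, with 2 of the 3 vehicle tumors far above the other 7. Of 9 listed genes of the CXCR2 and platelet group, 6 were tested, with a median log2 fold change of -2.47 against -0.02 over all genes, and 4 of them (Cxcl1, Cxcl2, Cxcl3 and Ppbp) were lower at an unadjusted p under 0.05, although Cxcl3 passed the filter only through the other groups. Cxcl2, made by macrophages and neutrophils at sites of inflammation, measured 0.662, 6.86 and 6.3 CPM in vehicle replicates 1 to 3, 0.573, 0.343 and 0.409 CPM in R788 + anti-PDL1 and 0.884, 0.406 and 0.547 CPM in irradiated tumors. Vehicle replicates 2 and 3 were far above the other 7 tumors, and vehicle replicate 1 was above the R788 + anti-PDL1 tumors only narrowly. Its fitted log2 fold change was -3.37 (SE 0.80, adjusted p = 0.109) in R788 + anti-PDL1 and -2.92 (SE 0.79, adjusted p = 0.222) in irradiated tumors, each against vehicle. Without vehicle replicate 1, Cxcl2 was called in the first comparison, at -3.86 with an adjusted p of 0.0269 by edgeR. Without irradiated replicate 1 it was also called, at -3.34 with an adjusted p of 0.0451. These fits called 75 of 16688 and 856 of 16618 genes. Cxcl2 was called there under 5 of the 16 alternatives, and with no other library left out.

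Cxcl3, a close relative of Cxcl2, measured 0.662, 5.74 and 6.41 CPM in vehicle, 0.264, 0 and 0.409 CPM in R788 + anti-PDL1 and 2.14, 0.76 and 1.05 CPM in irradiated tumors. All 3 R788 + anti-PDL1 tumors were below every other tumor. On the log2 scale the difference was -4.23 (SE 1.12, adjusted p = 0.144) for R788 + anti-PDL1 against vehicle, -1.71 (SE 0.99, adjusted p = 0.44) for irradiated against vehicle, and 2.52 (SE 1.09, adjusted p = 0.265) for irradiated against R788 + anti-PDL1. Cxcl1, the mouse keratinocyte chemoattractant, measured 3.26, 14.8 and 11.4 CPM in vehicle, 3.52, 1.56 and 1.92 CPM in R788 + anti-PDL1 and 2.21, 5.88 and 6.2 CPM in irradiated tumors. Vehicle replicate 1 lay among the treated tumors, so the groups overlapped. The fitted log2 fold change was -2.07 (SE 0.62, adjusted p = 0.208) for R788 + anti-PDL1 and -1.03 (SE 0.60, adjusted p = 0.444) for irradiated tumors against vehicle. Ppbp, whose protein is processed to the platelet CXCR2 ligand CXCL7, measured 0.717, 3.81 and 2.68 CPM in vehicle, 0.617, 0.114 and 0.246 CPM in R788 + anti-PDL1 and 0.737, 0.355 and 0.684 CPM in irradiated tumors. It repeated the order of Cxcl2, with 2 high vehicle tumors, at a log2 fold change of -2.88 (SE 0.80, adjusted p = 0.162) and -2.02 (SE 0.77, adjusted p = 0.334) against vehicle. In R788 + anti-PDL1 against vehicle, DESeq2 called Cxcl1, Cxcl2, Cxcl3 and Ppbp (adjusted p = 0.0181, 0.00085, 0.000664 and 0.0118), beside 4.01% of all genes. In irradiated against vehicle it called Cxcl2 alone of these (adjusted p = 0.0104), beside 3.15% of genes. Limma-voom without weights called none of them. Cxcl5 was under the filter, with counts of 4, 26 and 14 in vehicle, 1, 1 and 8 in R788 + anti-PDL1 and 6, 8 and 6 in irradiated tumors, again highest in vehicle replicates 2 and 3. Summed per group, its ratio of R788 + anti-PDL1 to vehicle was 0.182 (exact 95% interval 0.0816 to 0.367, counting error only).

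**Figure D3:**
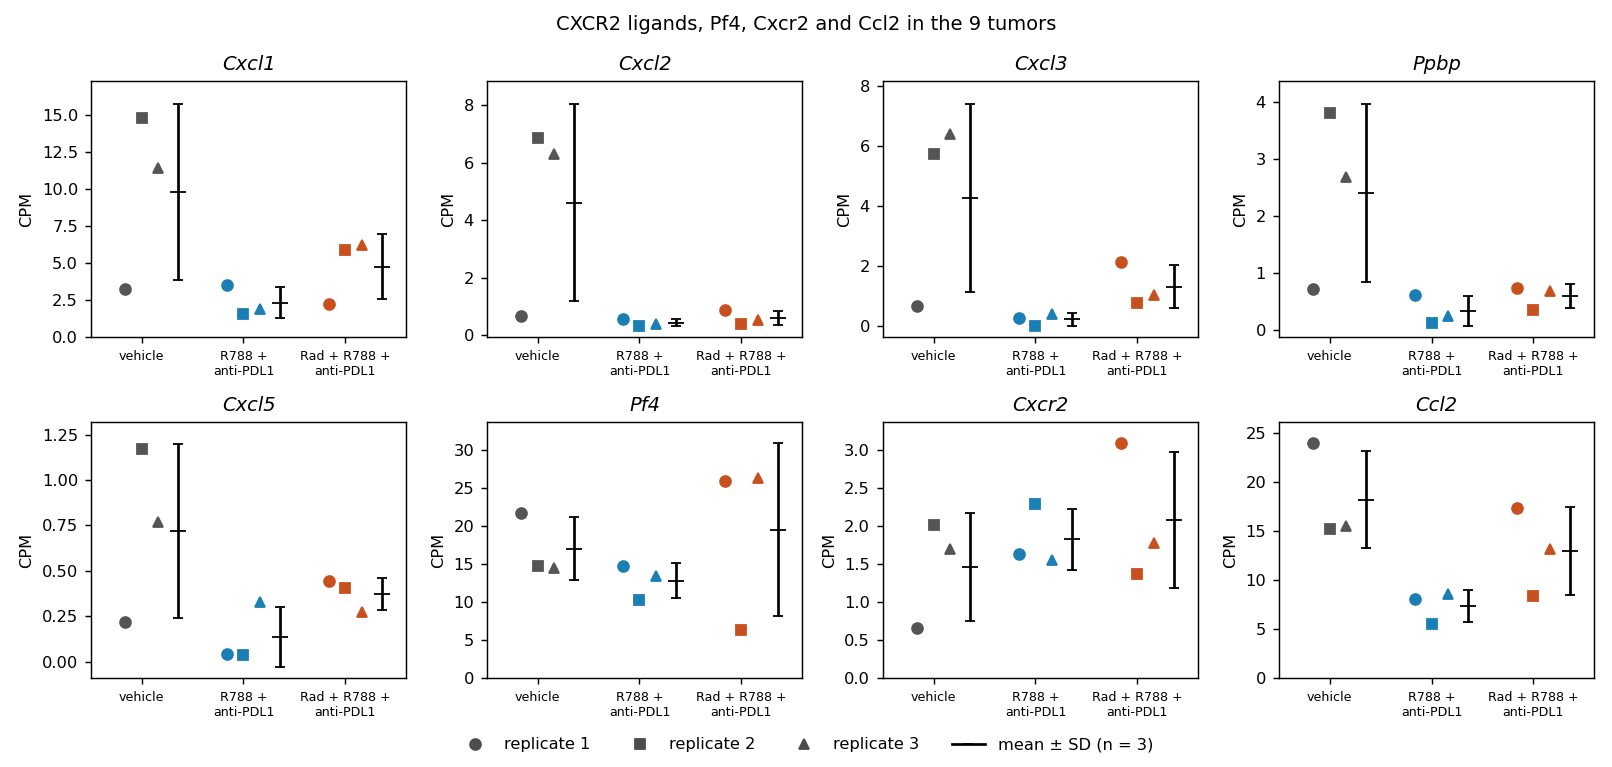
CPM (y axis, linear) of the CXCR2 ligands, Pf4, Cxcr2 and Ccl2 in each tumor of the 3 groups (x axis), with symbols for replicates and the mean ± SD beside them. For Cxcl2, Cxcl3 and Ppbp, vehicle replicates 2 and 3 stand above all 7 other tumors, while Pf4 and Cxcr2 do not share this order.

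The receptor itself showed no such order of tumors. Cxcr2 had a log2 fold change of 0.32 (SE 0.53, adjusted p = 0.874) and 0.50 (SE 0.53, adjusted p = 0.652) against vehicle and ranged from 0.662 to 3.09 CPM over the 9 tumors. Cxcr1 had a single count in all. Pf4, which lies between Ppbp and Cxcl3 on chromosome 5 but is not a classical CXCR2 ligand, measured 21.8, 14.8 and 14.5 CPM in vehicle, 14.7, 10.3 and 13.5 CPM in R788 + anti-PDL1 and 25.9, 6.39 and 26.3 CPM in irradiated tumors. Its groups overlapped, with log2 fold changes of -0.41 (SE 0.46, adjusted p = 0.806) and 0.20 (SE 0.46, adjusted p = 0.846) against vehicle. Neutrophil markers were also higher in vehicle than in R788 + anti-PDL1 tumors. Summed over 9 markers, of which Ly6g and Ngp were at 0 in all libraries and 4 were tested, they gave 4.3, 11 and 9.64 CPM in vehicle, 1.81, 2.44 and 3.4 CPM in R788 + anti-PDL1 and 2.95, 2.53 and 16.1 CPM in irradiated tumors, the last value being mostly Csf3r at 300 counts. S100a8 and S100a9, the calprotectin subunits of neutrophils and monocytes, were lower in R788 + anti-PDL1 by -3.00 and -3.45 on the log2 scale (adjusted p = 0.11 and 0.0832). The part of neutrophil content in the ligand difference was not tested.

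Position and promoter sequence set these ligands side by side. Cxcl5, Ppbp, Pf4, Cxcl3, Cxcl1 and Cxcl2 lie in this order within 147 kb on the plus strand of chr5:90759360-90905938 (GRCm38, GENCODE M21). The 5 tested genes of this cluster had a median log2 fold change of -2.88 in R788 + anti-PDL1 and -1.71 in irradiated tumors, against vehicle. Upstream sequences were taken from RefSeq (GRCm38.p6) for the 250 bases before each start and searched on both strands for GGNNTTTCC, a core of the kB motif bound by NF-kB, and for TTCNNTTTC, a core of the interferon-stimulated response element. Of the 58 members and the 5 symbols at 0, 48 were matched, with 57 promoters, among them those of 4 symbols at 0 (Ccl20, Ccl21b, Ccl27b and Cxcl15). The kB core was in 4.93% of the 32851 promoters and in 10 of these 57 (17.5%), of which 1 is that of Ccl20. The response element core was in 7.13% and in 8 of 57 (14%). In the CXCR2 and platelet group, Cxcl1, Cxcl2 and Cxcl3 held the kB core, and Ppbp and Pf4 did not. These 3 and the CXCR3 ligands Cxcl9 and Cxcl10 are printed, the first 3 for the neighboring ligands that were highest in the same tumors and the others because both cores occur in them. Each is written 5′ to 3′ on the gene's strand (plus for the first 3, minus for Cxcl9 and Cxcl10), ending 31 bases before the RefSeq start, except for Cxcl10, which ends 131 bases before it, and capitals mark matches to either core.
Cxcl1, chr5:90891115-90891214: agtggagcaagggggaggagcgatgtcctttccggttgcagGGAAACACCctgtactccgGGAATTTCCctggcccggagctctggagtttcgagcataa
Cxcl2, chr5:90903769-90903868: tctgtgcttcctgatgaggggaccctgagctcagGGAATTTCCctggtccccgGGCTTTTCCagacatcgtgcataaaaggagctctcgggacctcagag
Cxcl3, chr5:90785971-90786070: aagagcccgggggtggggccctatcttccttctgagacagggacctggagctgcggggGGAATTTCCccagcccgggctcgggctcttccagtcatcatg
Cxcl9, chr5:92328110-92328259: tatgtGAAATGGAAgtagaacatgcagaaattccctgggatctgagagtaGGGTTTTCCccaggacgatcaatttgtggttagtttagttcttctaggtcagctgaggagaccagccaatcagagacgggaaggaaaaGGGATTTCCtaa
Cxcl10, chr5:92349020-92349119: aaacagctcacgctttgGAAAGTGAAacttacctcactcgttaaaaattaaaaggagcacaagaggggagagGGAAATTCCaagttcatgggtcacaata
The same letters, GGAATTTCC, begin 70, 96 and 72 bases before the start of Cxcl1, Cxcl2 and Cxcl3. A second match lies 89 bases upstream in Cxcl1 and 77 bases upstream in Cxcl2. In Cxcl10 the response element core begins 213 bases and the kB core 158 bases before the start. A match is a description of the letters and shows no binding in these tumors.

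The CCR2 group holds the receptor that brings monocytes from blood into tissue and its ligands. In R788 + anti-PDL1 tumors, Ccl2 measured lower and Ccr2 measured higher than in vehicle. Ccl2 (ENSMUSG00000035385.5, chr11:82035571-82037453, plus strand) measured 24, 15.2 and 15.5 CPM in vehicle, 8.06, 5.53 and 8.6 CPM in R788 + anti-PDL1 and 17.4, 8.36 and 13.2 CPM in irradiated tumors. Every R788 + anti-PDL1 tumor was below every vehicle tumor, and the irradiated tumors spanned the gap. The group means were 18.2 ± 4.99, 7.4 ± 1.64 and 13 ± 4.51 CPM (SD, n = 3). Fitted log2 fold changes were -1.30 (SE 0.34, adjusted p = 0.137) in R788 + anti-PDL1 and -0.49 (SE 0.33, adjusted p = 0.492) in irradiated tumors against vehicle, and 0.81 (SE 0.34, adjusted p = 0.255) between the treated groups. Ccl2 was called in the first comparison by DESeq2 (adjusted p = 0.0172), and by edgeR without irradiated replicate 1 (adjusted p = 0.0418). The latter fit called 856 of 16618 genes. Ccl2 was called there under 4 of the 16 alternatives, and with no other library left out. Ccl7 and Ccl12, monocyte attractants encoded beside it, had log2 fold changes of -0.81 and -0.61 in R788 + anti-PDL1 and -0.24 and 0.29 in irradiated tumors, with adjusted p values from 0.638 to 0.834.

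Ccr2 (ENSMUSG00000049103.14, chr9:124101950-124113557, plus strand) measured 2.92, 5.7 and 3.5 CPM in vehicle, 5.07, 34.5 and 11.3 CPM in R788 + anti-PDL1 and 5.75, 5.22 and 55.2 CPM in irradiated tumors. R788 + anti-PDL1 replicate 2 and irradiated replicate 3 were far above the rest, and R788 + anti-PDL1 replicate 3 was next, while the other 3 treated tumors lay at the upper end of the vehicle range. Against vehicle the fitted log2 differences were 2.07 (95% interval -0.14 to 4.27, adjusted p = 0.471) and 2.45 (0.21 to 4.68, adjusted p = 0.354), with 1.01 for the former without R788 + anti-PDL1 replicate 2 and 0.43 for the latter without irradiated replicate 3. Ccl8, grouped with the CCR2 ligands and also known as a CCR8 ligand in mice, measured 5.96, 9.33 and 7.72 CPM in vehicle, 3.83, 13 and 7.53 CPM in R788 + anti-PDL1 and 14.7, 3.19 and 76.2 CPM in irradiated tumors. Irradiated replicate 3 alone set the group apart, and the log2 fold change of 2.03 (SE 0.92, adjusted p = 0.381) against vehicle became 0.21 without it. In the same tumor, macrophage markers summed to 1303 CPM and T cell markers to 47.2 CPM, the highest of the 9 tumors in each case. The part of this tumor's cell content in these differences was not tested.

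The CCR1 and CCR3 group, which serves macrophages and eosinophils, held the most abundant ligand in CPM. Of its 9 genes, 8 were tested, and 1 (Ccr3) had an unadjusted p under 0.05 in a comparison. Ccr3 reached the filter level in no vehicle tumor and so was tested only because treated tumors were higher. The median log2 fold changes over the 8, with Ccr3 among them, were 0.23, 0.12 and -0.02. Ccl6 measured 35, 39.2 and 46.3 CPM in vehicle, 30.4, 66.2 and 38.4 CPM in R788 + anti-PDL1 and 20.8, 12.7 and 115 CPM in irradiated tumors. The 2 lowest values and the highest were all in irradiated tumors. Its log2 fold change against vehicle was 0.16 (SE 0.69, adjusted p = 0.958) and 0.31 (SE 0.69, adjusted p = 0.838), and the latter became -1.27 without irradiated replicate 3.

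Ccl9, the neighbor of Ccl6 and likewise a CCR1 ligand, measured 21.2, 22.7 and 20 CPM in vehicle, 15.7, 34.9 and 18.3 CPM in R788 + anti-PDL1 and 10, 10.9 and 78.5 CPM in irradiated tumors. As for Ccl6, the irradiated tumors held the 2 lowest values and the highest. Fitted on the log2 scale, the difference was 0.64 (SE 0.71, adjusted p = 0.666) for irradiated against vehicle and -1.03 without replicate 3, and DESeq2 gave no p for this gene. Ccl5, made by activated T cells among others, was at most 3.47 CPM in 8 tumors and at 12.7 CPM in irradiated replicate 3. Ccl3 and Ccl4, the macrophage inflammatory proteins, ranged over the 9 tumors from 0.229 to 3.14 CPM and from 0.153 to 2.28 CPM, each lowest in R788 + anti-PDL1 replicate 2. Ccr1, the receptor they share with Ccl6 and Ccl9 on myeloid cells, ranged from 2.43 to 9.49 CPM, and its log2 fold change was 0.29 (SE 0.49, adjusted p = 0.878) and -0.07 (SE 0.49, adjusted p = 0.949) against vehicle. For Ccl3, Ccl4 and Ccl5 the log2 fold changes in irradiated tumors against vehicle were -0.75, -0.24 and 1.51, with adjusted p of 0.627, 0.893 and 0.452.

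Ccr3, the eotaxin receptor of eosinophils, had the group's largest fitted difference in R788 + anti-PDL1 against vehicle but low counts, with 1, 4 and 0 in vehicle, 33, 7 and 29 in R788 + anti-PDL1 and 1, 1 and 13 in irradiated tumors. As levels these were 0.0552, 0.179 and 0 CPM, 1.45, 0.267 and 1.19 CPM and 0.0737, 0.0507 and 0.593 CPM. The R788 + anti-PDL1 tumors were all above the vehicle tumors, at a log2 fold change of 3.46 (SE 1.20, adjusted p = 0.279). Ccr3 was tested only because treated tumors were higher, so this order and fold change are descriptions only. Summed counts gave a ratio of 11 (exact 95% interval 4.51 to 35.1, counting error only). The eotaxins Ccl24 and Ccl11 were highest in R788 + anti-PDL1 replicate 2, at 58 and 36 counts. Ccl24 had a log2 fold change of 1.73 (SE 1.02, adjusted p = 0.585) against vehicle, and Ccl11, under the filter, had summed counts of 13 in vehicle, 53 in R788 + anti-PDL1 and 9 in irradiated tumors.

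**Figure D4:**
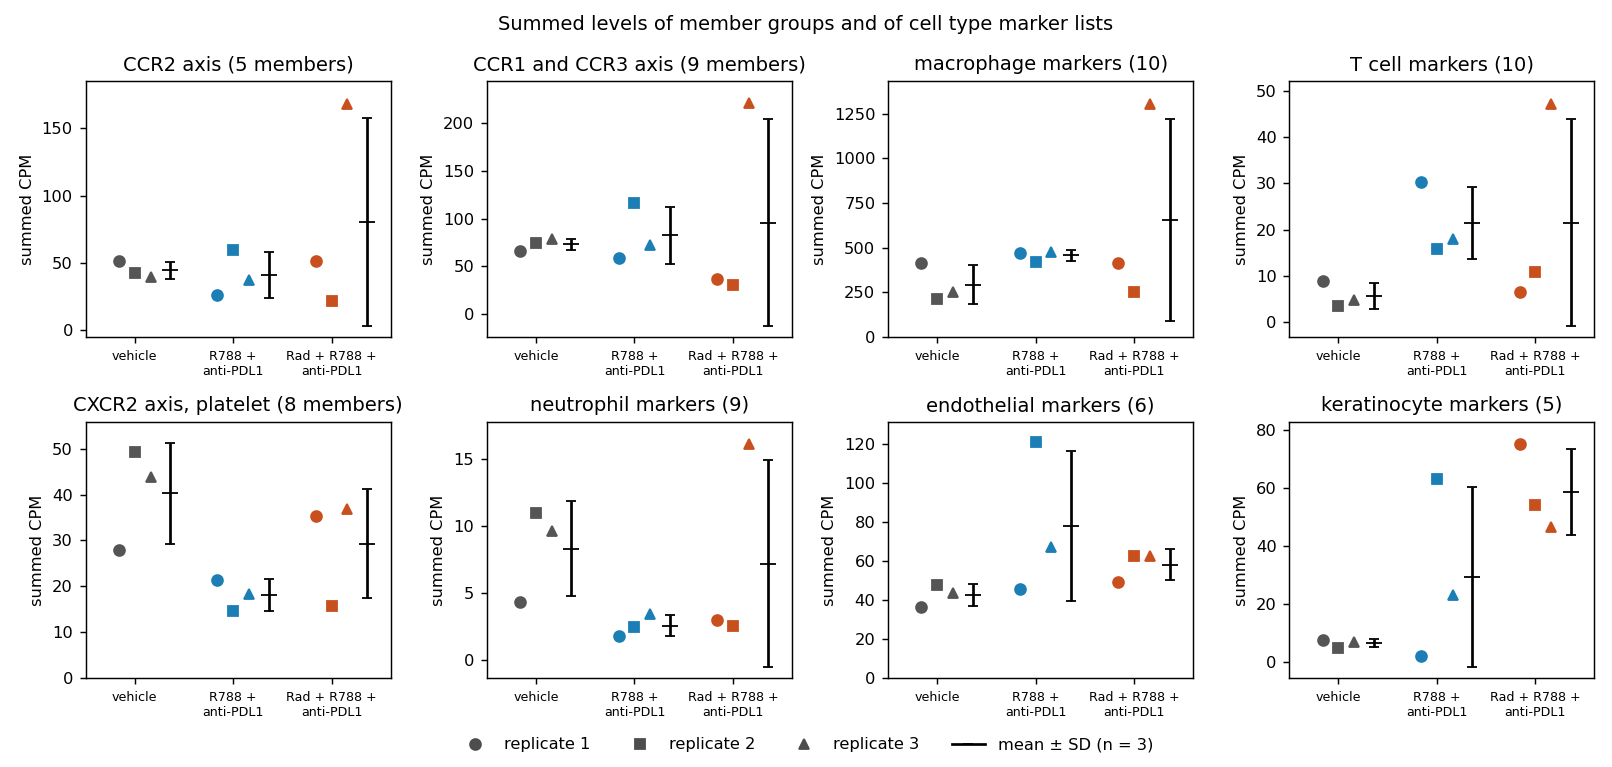
Summed CPM (y axis, linear) of 3 member groups and 5 marker lists in each tumor (x axis, group), with the mean ± SD beside the points. Irradiated replicate 3 is highest for the CCR2 axis, the CCR1 and CCR3 axis, macrophage markers and T cell markers, and R788 + anti-PDL1 replicate 2 for endothelial markers.

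In the CXCL16, CX3C and XC group, Cxcl16, Cx3cl1 and Cx3cr1 had higher fitted levels in both treated groups than in vehicle. The other tested members, Cxcr6 and Xcr1, reached the filter level in no vehicle tumor, so their direction is not counted with these. Cxcl16 (ENSMUSG00000018920.11, chr11:70453983-70459984, minus strand), a membrane-bound ligand of macrophages and dendritic cells that can be shed, measured 7.67, 4.31 and 5.53 CPM in vehicle, 11.5, 15.4 and 11.7 CPM in R788 + anti-PDL1 and 22.5, 10.6 and 27.6 CPM in irradiated tumors. All 6 treated tumors were above all 3 vehicle tumors, and the means were 5.84 ± 1.7, 12.9 ± 2.18 and 20.3 ± 8.71 CPM (SD, n = 3). The log2 fold change was 1.14 (SE 0.38, adjusted p = 0.252) in R788 + anti-PDL1 and 1.80 (SE 0.38, adjusted p = 0.144) in irradiated tumors, where DESeq2 called it (adjusted p = 0.000861). It lay between 1.50 and 2.10 in the irradiated comparison under all 16 alternatives. Exons of Cxcl16 overlap those of Zmynd15 on the other strand, and strandedness was not stated, so its counts are uncertain. Zmynd15 ranged from 0.987 to 17.8 CPM, highest in R788 + anti-PDL1 replicate 2, and had log2 fold changes of 2.64 and 1.74 against vehicle. Cxcr6, the receptor of Cxcl16 on effector and resident T cells, had counts of 0, 4 and 0 in vehicle, 7, 13 and 6 in R788 + anti-PDL1 and 1, 11 and 59 in irradiated tumors, or 0, 0.179 and 0 CPM, 0.308, 0.496 and 0.246 CPM and 0.0737, 0.558 and 2.69 CPM. Irradiated replicate 3 held most of the counts of its group. The log2 fold change of irradiated against vehicle was 4.00 (SE 1.37, adjusted p = 0.304), and 2.24 without that tumor.

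Cx3cl1 (ENSMUSG00000031778.13, chr8:94772009-94782427, plus strand), or fractalkine, a membrane-anchored ligand of endothelium and neurons, measured 5.85, 0.583 and 1.1 CPM in vehicle, 12.9, 7.51 and 16.3 CPM in R788 + anti-PDL1 and 7.22, 17.6 and 18.5 CPM in irradiated tumors. Vehicle replicates 2 and 3 were the lowest by a wide margin, the reverse of their place for Cxcl2, and vehicle replicate 1 was just below the lowest treated tumor. Its log2 fold change was 2.29 (SE 0.78, adjusted p = 0.266) and 2.53 (SE 0.78, adjusted p = 0.271) against vehicle, called by DESeq2 in both (adjusted p = 0.0284 and 0.0157). Without vehicle replicate 1 these were 3.89 (adjusted p = 0.05, under the threshold before rounding) and 4.12 (adjusted p = 0.0747). Its receptor Cx3cr1, a marker of monocytes, macrophages and NK cells, measured 1.82, 0.449 and 1.04 CPM in vehicle, 2.73, 3.24 and 2.09 CPM in R788 + anti-PDL1 and 2.36, 2.28 and 6.25 CPM in irradiated tumors. Its treated tumors were also all above the vehicle tumors, with log2 fold changes of 1.29 (SE 0.60, adjusted p = 0.458) and 1.73 (SE 0.61, adjusted p = 0.312). Macrophage markers, all 10 of them detected, summed to 416, 211 and 251 CPM in vehicle, 473, 423 and 476 CPM in R788 + anti-PDL1 and 413, 253 and 1303 CPM in irradiated tumors. As for Cxcl16, Cx3cl1 and Cx3cr1, vehicle replicate 1 was the highest vehicle tumor, and the R788 + anti-PDL1 tumors were above all vehicle tumors. For the marker sum this gap was narrow (423 against 416 CPM), and 2 irradiated tumors were within the vehicle range. By single marker, Csf1r, Fcgr1 and Mrc1 were wholly higher in R788 + anti-PDL1 than in vehicle. The other macrophage markers overlapped between these groups, and Cd14 had a log2 fold change of -0.31. The 5 NK cell markers, none at 0 in all tumors, summed to 1.12 to 1.77 CPM in vehicle, 2.95 to 8.32 CPM in R788 + anti-PDL1 and 1.42 to 7.57 CPM in irradiated tumors. The part of these cells in the levels of the 3 genes was not tested. Xcr1, a marker of cross-presenting dendritic cells, had counts of 4, 7 and 1 in vehicle, 11, 24 and 16 in R788 + anti-PDL1 and 3, 5 and 25 in irradiated tumors. It had log2 fold changes of 1.75 (SE 0.84, adjusted p = 0.473) and 1.44 (SE 0.85, adjusted p = 0.447), and its ligand Xcl1, under the filter, had 2 to 14 counts per tumor.

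**Figure D5:**
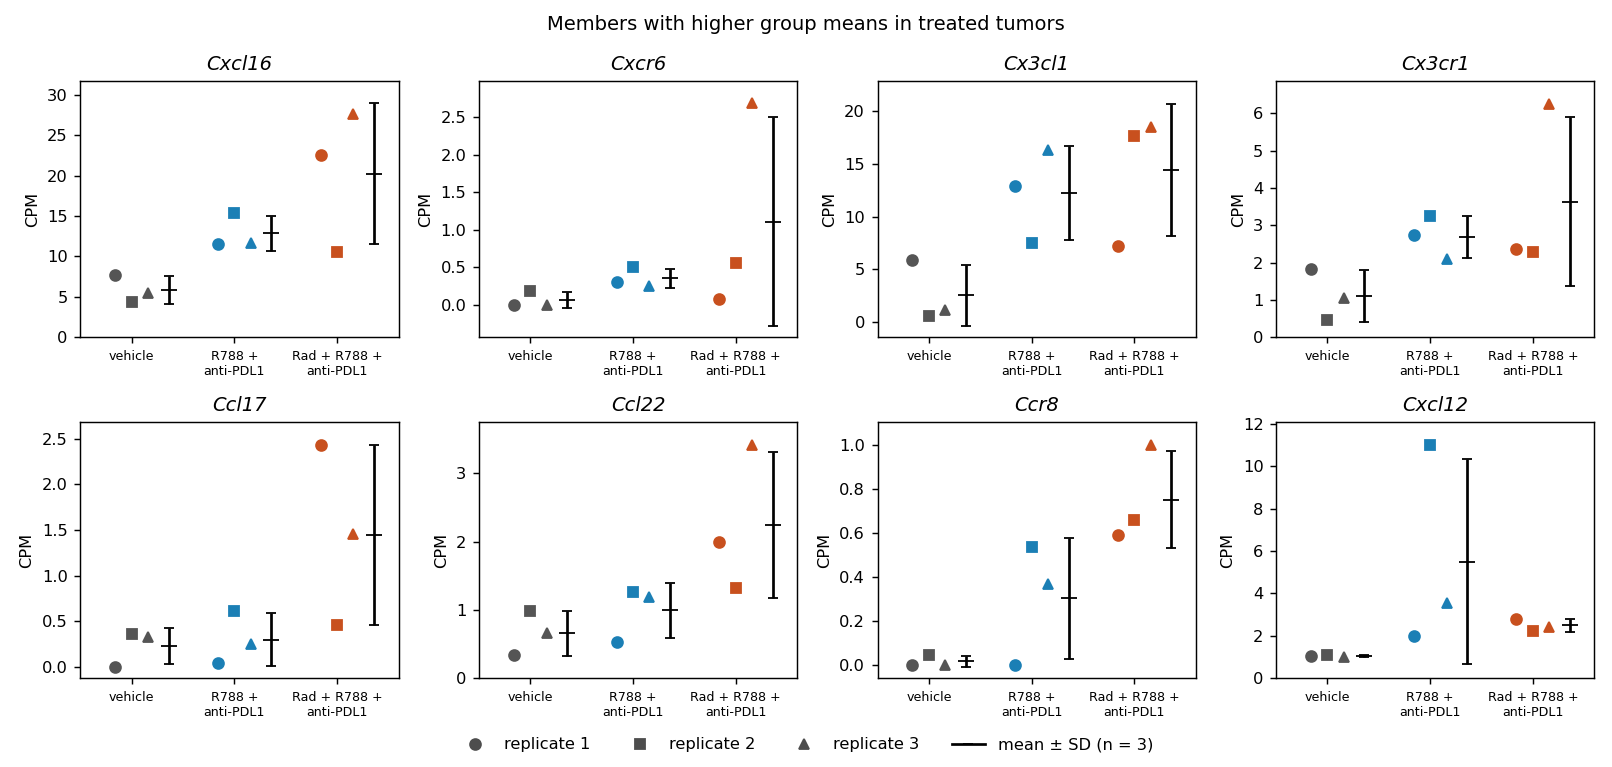
CPM (y axis, linear) of 8 members with higher mean levels in a treated group, in each tumor of the 3 groups (x axis), with the mean ± SD beside the points. All 6 treated tumors exceed the 3 vehicle tumors for Cxcl16, Cx3cl1, Cx3cr1 and Cxcl12, and all 3 irradiated tumors exceed the vehicle tumors for Ccl17, Ccl22 and Ccr8. Ccl17 and Ccr8 reached the filter level in no vehicle tumor, so their order is a description only.

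The CCR4 and CCR8 group guides regulatory and type 2 helper T cells. Of its 5 listed genes 3 were tested, and of these Ccl17 and Ccr8 reached the filter level in no vehicle tumor, so no count or median over the group is given. Ccl22, made by dendritic cells and macrophages, measured 0.331, 0.987 and 0.657 CPM in vehicle, 0.529, 1.26 and 1.19 CPM in R788 + anti-PDL1 and 1.99, 1.32 and 3.42 CPM in irradiated tumors. The irradiated tumors were above all 6 others, at a log2 fold change of 1.75 (SE 0.61, adjusted p = 0.307) against vehicle and 1.17 (SE 0.59, adjusted p = 0.305) against R788 + anti-PDL1. Ccl17, the other CCR4 ligand, measured 0, 0.359 and 0.329 CPM in vehicle, 0.044, 0.61 and 0.246 CPM in R788 + anti-PDL1 and 2.43, 0.456 and 1.46 CPM in irradiated tumors. Irradiated replicate 1 was highest, and R788 + anti-PDL1 replicate 2 exceeded irradiated replicate 2. Irradiated tumors differed from vehicle by 2.60 (SE 1.11, adjusted p = 0.365) on the log2 scale. Ccl22, Cx3cl1 and Ccl17 are neighbors within 66.4 kb on chr8:94745590-94812036. Ccr8, carried by tumor regulatory T cells, had counts of 0, 1 and 0 in vehicle, 0, 14 and 9 in R788 + anti-PDL1 and 8, 13 and 22 in irradiated tumors. As levels these were 0, 0.0449 and 0 CPM, 0, 0.534 and 0.368 CPM and 0.589, 0.659 and 1 CPM, and all irradiated tumors were above all others. A single vehicle count gives a ratio of summed counts of 45.7 for irradiated tumors (exact 95% interval 7.77 to 1846) and 18.4 for R788 + anti-PDL1 (2.99 to 758), with counting error only. The fitted log2 fold changes were 3.77 (SE 1.41, adjusted p = 0.329) and 5.07 (SE 1.37, adjusted p = 0.222), and DESeq2 called the latter (adjusted p = 0.0385). Ccl17 and Ccr8 were tested by edgeR only because treated tumors were higher, so their order, ratios and fold changes are descriptions only. Ccr4 had 4 counts in all and Ccl1 15. Summed over 10 T cell markers, none at 0 in all tumors, levels were 8.88, 3.54 and 4.82 CPM in vehicle, 30.3, 15.9 and 17.9 CPM in R788 + anti-PDL1 and 6.48, 10.9 and 47.2 CPM in irradiated tumors, and outside irradiated replicate 3 they were mostly Lck and Cd4. Cd4 had counts of 56, 20 and 18 in vehicle, 519, 53 and 298 in R788 + anti-PDL1 and 17, 105 and 382 in irradiated tumors. The T cell receptor complex genes Cd3e, Cd3d and Cd3g had 41 to 55 counts in irradiated replicate 3 and at most 17 in any other tumor. The part of T cells in the Ccr8 counts was not tested.

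The CXCR3 group, whose ligands are induced by interferon and attract effector T cells and NK cells, held members that pointed in different directions against vehicle. Cxcl10 (ENSMUSG00000034855.13, chr5:92346638-92348889, minus strand) measured 1.6, 5.38 and 6.63 CPM in vehicle, 2.47, 3.66 and 3.23 CPM in R788 + anti-PDL1 and 6.48, 4.21 and 10.8 CPM in irradiated tumors. The irradiated tumors were above the R788 + anti-PDL1 tumors, and the vehicle tumors overlapped both. The means were 4.54 ± 2.62, 3.12 ± 0.606 and 7.15 ± 3.33 CPM (SD, n = 3). Cxcl10 had a log2 fold change of -0.54 (SE 0.54, adjusted p = 0.779) and 0.66 (SE 0.54, adjusted p = 0.562) against vehicle, and 1.19 (SE 0.54, adjusted p = 0.276) between the treated groups with a 95% interval of -0.02 to 2.41. Art3 overlaps Cxcl10 exons on the other strand and ranged from 1.53 to 17.2 CPM, highest in R788 + anti-PDL1 replicate 2. Art3 had log2 fold changes of 2.07 and 1.49 against vehicle, and strandedness was not stated, so Cxcl10 counts are uncertain. Cxcl9 ranged from 0.203 to 3.14 CPM and was highest in vehicle replicate 1 (log2 fold changes -0.95 and -0.92 against vehicle, adjusted p = 0.744 and 0.602), and Cxcl11 had 12 counts in all. Cxcr3 had counts of 4, 0 and 1 in vehicle, 5, 17 and 15 in R788 + anti-PDL1 and 0, 4 and 79 in irradiated tumors, or 0.221, 0 and 0.0548 CPM, 0.22, 0.648 and 0.614 CPM and 0, 0.203 and 3.6 CPM. Cxcr3 reached the filter level in no vehicle tumor, so it was tested only because treated tumors were higher. Nearly all irradiated counts came from replicate 3, and the log2 fold change of 3.79 (SE 1.61, adjusted p = 0.365) against vehicle became 0.31 without it. In that tumor Ifng, the inducer of these ligands, had 27 counts, against at most 6 in any other tumor.

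Among homeostatic and lymphoid members, Cxcl12 (ENSMUSG00000061353.11, chr6:117168535-117181367, plus strand), the stromal CXCR4 ligand, measured 1.05, 1.08 and 0.986 CPM in vehicle, 1.98, 11 and 3.52 CPM in R788 + anti-PDL1 and 2.8, 2.23 and 2.42 CPM in irradiated tumors. All 6 treated tumors were above the vehicle tumors, which differed little among themselves, and R788 + anti-PDL1 replicate 2 was far above the rest. The log2 fold change was 2.40 (SE 0.61, adjusted p = 0.126) in R788 + anti-PDL1 and 1.25 (SE 0.60, adjusted p = 0.391) in irradiated tumors. DESeq2 called the former (adjusted p = 0.00309), and without R788 + anti-PDL1 replicate 2 it was 1.40. The 6 endothelial markers, none at 0 in all tumors, summed to 36.4, 47.7 and 43.5 CPM in vehicle, 45.8, 121 and 67.5 CPM in R788 + anti-PDL1 and 49.2, 62.9 and 62.5 CPM in irradiated tumors, highest in that same tumor. Fibroblast markers also had their highest sum there, at 3318 CPM against 1102 to 2661 CPM elsewhere, of which Col1a1 was 2839 CPM. Lum was not highest there (21 CPM, against 27.9 CPM in vehicle replicate 2), and Dcn only narrowly (67.1 CPM, against 66.8 CPM in irradiated replicate 2). The part of endothelial and fibroblast content in the Cxcl12 difference was not tested. Cxcr4 measured 3.97, 1.62 and 2.9 CPM in vehicle, 4.32, 3.32 and 4.09 CPM in R788 + anti-PDL1 and 3.09, 4.82 and 6.43 CPM in irradiated tumors. The groups overlapped, with log2 fold changes of 0.47 (SE 0.43, adjusted p = 0.751) and 0.76 (SE 0.43, adjusted p = 0.434) against vehicle.

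Cxcl13, the B cell attractant of lymphoid follicles, was under the filter, with counts of 0, 0 and 0 in vehicle, 0, 40 and 12 in R788 + anti-PDL1 and 0, 2 and 1 in irradiated tumors. With vehicle set at its limit of 3 counts over the group, the ratio of R788 + anti-PDL1 to vehicle was 13.9, although 1 tumor held 40 of the 52 counts. Such a ratio leaves out the counting error of the higher group. The receptor of Cxcl13, Cxcr5, had counts of 1, 8 and 2 in vehicle, 0, 0 and 5 in R788 + anti-PDL1 and 0 in each irradiated tumor. By the same limit, the ratio of vehicle to irradiated was 3.45, with 8 of the 11 vehicle counts in 1 tumor. Exons of Cxcr5 overlap those of Bcl9l on the other strand, so its counts are uncertain. Cxcl14, a chemokine of epithelium and stroma, was also highest in R788 + anti-PDL1 replicate 2, at 2.37 CPM, and had a log2 fold change of -2.08 (SE 1.19, adjusted p = 0.438) in irradiated tumors against vehicle. Ccr7, which brings dendritic cells and T cells to lymph nodes, differed by -0.15 and 0.55 on the log2 scale (adjusted p = 0.946 and 0.592). Its ligand Ccl19 differed by -1.37 and 0.37 (adjusted p = 0.59 and 0.828), and Ccl21a and Ccl21c had 9 and 2 counts in all. Genes of the Ccl19, Ccl21 and Ccl27 families have near-identical copies in the mouse genome, and reads shared between copies make their counts uncertain.

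The epithelial and mucosal ligands Ccl25 and Ccl27a were highest in irradiated replicate 1, the tumor that stood apart. Ccl25, the CCR9 ligand of thymus and gut, measured 37.5, 34.6 and 38.2 CPM in vehicle, 23.9, 14.2 and 25.5 CPM in R788 + anti-PDL1 and 57.2, 22.9 and 22.7 CPM in irradiated tumors. The R788 + anti-PDL1 tumors were below all vehicle tumors, and irradiated replicate 1 was the highest of the 9. For Ccl25 the log2 fold change was -0.80 (SE 0.38, adjusted p = 0.469) in R788 + anti-PDL1 and -0.10 (SE 0.38, adjusted p = 0.901) in irradiated tumors against vehicle. Its exons overlap Elavl1, on the other strand at 147 to 310 CPM, which was itself lower by -0.59 and -0.53 on the log2 scale, so Ccl25 counts are uncertain. Ccl27a, the CCR10 ligand of skin, measured 11.3, 7.13 and 5.64 CPM in vehicle, 6.21, 6.75 and 6.02 CPM in R788 + anti-PDL1 and 23.9, 9.83 and 7.75 CPM in irradiated tumors. Irradiated replicate 1 was again highest, and the log2 fold change between the treated groups was 1.12 (SE 0.45, adjusted p = 0.248). Il11ra1, whose exons overlap Ccl27a on the other strand, ranged from 91.1 to 1145 CPM and was also highest in irradiated replicate 1, so Ccl27a counts are uncertain. Ccr10 measured 1.54, 1.44 and 2.08 CPM in vehicle, 1.41, 0.763 and 0.696 CPM in R788 + anti-PDL1 and 0.663, 0.507 and 0.547 CPM in irradiated tumors. The 3 groups were fully ordered, with vehicle highest and irradiated lowest, at log2 fold changes of -0.82 (SE 0.48, adjusted p = 0.583) and -1.55 (SE 0.49, adjusted p = 0.278) against vehicle. Ccr9 had log2 fold changes of 0.50 (SE 0.78, adjusted p = 0.866) and -1.24 (SE 0.86, adjusted p = 0.499). Its exons overlap Gm17200 on the same strand, which had at most 5 counts in a tumor. They also overlap Slc6a20a and AC165425.1 on the other strand, whose levels are not given here, so Ccr9 counts are uncertain. Ccl28, Cxcl17 and Ccr6 had 54, 9 and 3 counts in all. Keratinocyte markers summed to 4.93 to 7.72 CPM in vehicle, 1.89 to 63.1 CPM in R788 + anti-PDL1 and 46.6 to 75.1 CPM in irradiated tumors, mostly from Krt5. Krt14 ran the other way, with counts of 4, 41 and 43 in vehicle, 0, 0 and 0 in R788 + anti-PDL1 and 0, 2 and 0 in irradiated tumors, and Krt1, Krt10 and Krt15 had at most 10 counts in a tumor. The part of keratinocyte content in the Ccl27a and Ccl25 values was not tested.

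Ackr3 was the steadiest abundant member. It measured 23.2, 33.5 and 29.4 CPM in vehicle, 25.1, 28.4 and 25.3 CPM in R788 + anti-PDL1 and 20.9, 23.2 and 23.6 CPM in irradiated tumors. The irradiated tumors lay just below the R788 + anti-PDL1 tumors, and vehicle overlapped both. Its log2 fold changes were -0.13 (SE 0.20, adjusted p = 0.862), -0.34 (SE 0.20, adjusted p = 0.438) and -0.22 (SE 0.20, adjusted p = 0.548) in the 3 comparisons, with the smallest SE of the 41 members. Ccrl2, which presents chemerin without signalling, had log2 fold changes of 0.07 (SE 0.96, adjusted p = 0.99) and 0.35 (SE 0.96, adjusted p = 0.867) against vehicle and no count in irradiated replicate 1. Ackr1, the interceptor of venules, had counts of 0, 0 and 0 in vehicle and 1, 7 and 8 in R788 + anti-PDL1, and 1 count in irradiated tumors. With vehicle set at its limit of 3 counts, the ratio of R788 + anti-PDL1 to vehicle was 4.27, leaving out the counting error of the higher group. Exons of Ackr1 overlap those of Cadm3 on the same strand, so its counts are uncertain. Cadm3 had counts of 1, 0 and 3 in vehicle, 11, 79 and 27 in R788 + anti-PDL1 and 5, 0 and 10 in irradiated tumors. Ackr2 and Ackr4, scavengers of inflammatory and homeostatic CC ligands, were highest in R788 + anti-PDL1 replicate 2, with 33 and 14 counts.

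The 17 members under the filter had between 1 and 76 counts over all libraries and no more than 40 in any one. Of these, Ackr2, Ackr4, Ccl11, Cxcl11 and Cxcl13 were each highest in R788 + anti-PDL1 replicate 2. Exons of Ackr4, Xcl1 and Cxcl11 overlap those of Acad11, Gm20743 and Gm2673 on the other strand, so their counts are uncertain. The receptors Ccr4, Ccr6 and Cxcr1 had at most 3 counts in any tumor, which is the limit that a count of 0 allows, and were not compared.

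The receptor genes of chromosome 9 were compared as neighbors. Ccr9, Cxcr6, Xcr1, Ccr1, Ccr3 and Ccr2 lie within 435 kb on chr9:123678439-124113557, of which Cxcr6, Xcr1 and Ccr3 reached the filter level in no vehicle tumor and Ccr9 in no irradiated tumor. For Ccr1 and Ccr2, which reached it in all 9 tumors, the log2 fold changes against vehicle were 0.29 and 2.07 in R788 + anti-PDL1 and -0.07 and 2.45 in irradiated tumors. The monocyte ligand cluster on chr11:82035571-82305690 (Ccl2, Ccl7, Ccl11, Ccl12, Ccl8 and Ccl1) had medians of -0.71 and 0.03 over its 4 tested genes, and the adjacent cluster of Ccl5, Ccl9, Ccl6, Ccl3 and Ccl4 on chr11:83525778-83664683 had medians of 0.11 and 0.31.

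Genes that act before or after the chemokines were counted by the same test, and none was called in any comparison. Of 22 listed signalling partners of the receptors (G proteins, arrestins, kinases and guanine exchange factors), 19 were tested, and 2, 2 and 0 were higher at an unadjusted p under 0.05 in the 3 comparisons, with 0 lower. Of 18 inflammatory inducers, 16 were tested. At an unadjusted p under 0.05, 4 of these were lower in R788 + anti-PDL1 than in vehicle (25%, against 5.69% of all genes), 1 (Nfkb2) was lower in irradiated tumors than in vehicle (6.25%, against 5.51%), and 3 were higher in irradiated than in R788 + anti-PDL1 tumors (18.8%, against 11.7%), with 0 in the other direction each time. Il1b, an inducer of CXCR2 ligands, had counts of 20, 68 and 89 in vehicle, 19, 23 and 22 in R788 + anti-PDL1 and 27, 36 and 55 in irradiated tumors, with vehicle replicates 2 and 3 highest, as for Cxcl2. Its log2 fold change in R788 + anti-PDL1 against vehicle was -1.78 (SE 0.54, adjusted p = 0.21). The NF-kB pathway genes Relb and Nfkbia differed by -0.90 and -0.70 (adjusted p = 0.0879 and 0.194). For each, all R788 + anti-PDL1 tumors were below the vehicle tumors, as were 16.6% of all genes. Of the 16 inducers tested, 10 were lower and 6 higher in this comparison. Among the higher were Nfkb1 (0.25), Tnfaip3 (0.40) and Il1a (0.82). The part of these inducers in the ligand levels was not tested. Of 13 genes of other attractant systems (complement, formyl peptide, chemerin and sphingosine phosphate receptors among them), 9 were tested. By the same threshold 2, 2 and 0 were higher (22.2%, 22.2% and 0%, against 5.96%, 7.71% and 11.7% of all genes). In turn 0, 0 and 1 were lower (0%, 0% and 11.1%, against 5.69%, 5.51% and 6.65%). S1pr1, the receptor for exit of lymphocytes into blood, differed by 1.46 in R788 + anti-PDL1 against vehicle (SE 0.31, adjusted p = 0.0793).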

How the data were processed

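Whole-tumor RNA was sequenced from 9 tumors. The authors deposited estimated counts for each gene symbol, made with STAR 2.6.1d (build mm10) and Salmon 1.4.0 from polyA libraries, as whole numbers that were not normalized. The labels give whole tumor as tissue but cultured macrophages in the extraction text, and sequencer and read type differ between labels and methods. Strandedness was not given in the sources used here. Columns were matched to samples by title. Low genes were removed with filterByExpr (minimum count 10), TMM factors were computed, and edgeR 4.0.16 under R 4.3.3 was used for the quasi-likelihood test (robust), with the 3 groups as the only terms and all 9 libraries in 1 fit. A gene was called where its two-sided p, adjusted by Benjamini-Hochberg over all genes tested, was under 0.05. Intervals are 95%. Alternatives were DESeq2 1.42.0, limma 3.58.1 (voom, also weighted by sample quality), RLE scaling, no filter, fits to 6 libraries, a replicate block, and each library left out. Lengths and coordinates came from GENCODE M21. No pair of replicates agreed within sampling noise. Scripts were tested on simulated data. Values per tumor are given for Cxcl10, Ccl2, Cxcl12, Cxcr3, Ccr2, Cxcr4 and Ackr3, for the 10 members of highest mean CPM, and for members with an unadjusted p under 0.05. The members and lists were chosen with earlier results of these data known. A member and a marker gene are not reported here.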

Additional observations from a re-analysis of the deposited data

How the results depend on the processing

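The number of members called moved most with the test. Against 0 in each comparison by edgeR, DESeq2 called 7 in R788 + anti-PDL1 against vehicle and 4 in irradiated against vehicle, and limma-voom with sample quality weights called 14, 10 and 2. In R788 + anti-PDL1 against vehicle, 1 of 58 members was called without the low-count filter, beside 199 of 27965 genes. With only the 6 libraries compared, 1 of 36 was called, beside 594 of 15467 genes. With a library left out, 0 to 2 were called. Without vehicle replicate 1 this was 2 of 47, beside 75 of 16688 genes. Without irradiated replicate 1 it was 2 of 47, beside 856 of 16618 genes. RLE scaling and limma-voom called 0 members in each comparison, and the cause of these differences was not tested.

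The median of members in irradiated against R788 + anti-PDL1 ran from -0.21 to 0.85 with a library left out, lowest without irradiated replicate 3. In R788 + anti-PDL1 against vehicle and in irradiated against vehicle it ran from -0.19 to 0.38 and from -0.28 to 0.65, and in the former it was -0.13 with quality weights. Over all genes, the 108, 7 and 1 calls became 199, 70 and 24 without the filter and 594, 1 and 0 with only the 6 libraries compared. Over the 26 members given per tumor, 1199 of 1238 log2 fold changes under alternatives kept their direction. The 39 that did not came from 13 members, and 11 of the 39 from leaving out irradiated replicate 3. Each arose in a comparison where that member's unadjusted p by edgeR was 0.05 or more. Some of these members, such as Ccr2 and Cxcr3, were under 0.05 in another comparison. By limma-voom the reversed values were -0.05 for Ccl8 in R788 + anti-PDL1 against vehicle, -0.31 for Ccl6 and -0.06 for Pf4 in irradiated against vehicle, and -0.33 for Cxcr3 and -0.41 for Ccl6 between the treated groups. With quality weights they were -0.20 for Ccl6, -0.16 for Ccl9, -0.19 for Ccl8 and -0.41 for Ccl17 in the first comparison, -0.35 for Ccl6 and -0.28 for Pf4 in the second, and -0.16 for Ccl6, -0.07 for Ccl25 and -0.11 for Pf4 in the third. With a library left out, values ran from -0.23 to 0.38 for Ccl6, -0.33 to 0.32 for Ccl9, -0.43 to 0.42 for Ccl8, -0.65 to 0.87 for Ccl17 and -0.55 to 0.01 for Ccl27a in the first comparison. In the second they ran from -1.27 to 0.76 for Ccl6, -0.66 to 0.12 for Ccl25, -1.03 to 1.11 for Ccl9, -0.09 to 0.61 for Pf4 and -0.40 to 2.93 for Ccr3. In the third they ran from -2.10 to 1.95 for Cxcr3, -1.63 to 1.43 for Ccr2, -1.43 to 0.60 for Ccl6, -1.14 to 0.97 for Ccl9, -0.02 to 0.57 for Cx3cl1, -0.21 to 0.68 for Cx3cr1 and -0.09 to 2.21 for Cxcr6.

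Same-numbered tumors did not deviate together (correlations of deviations from group means of -0.05 to 0.23 over 9 pairs), so the numbers were not taken to pair them. With a replicate block, 0 members were called in each comparison and 0, 3 and 0 genes in all, against 108, 7 and 1 without it. The member medians under the block were 0.07, 0.18 and 0.43, and Ccl6 turned to -0.10 in irradiated against vehicle and -0.30 between the treated groups. With 3 tumors a group, an exact permutation test of a single member cannot give a two-sided p below 0.1, and members of a few counts per tumor could not show moderate differences at this depth.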
